A study of Mus musculus with 6 samples.

Results

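Ank3, Lingo1, Sash1, Slc9a9 and Thsd4 are mouse genes that each carry several stretches of DNA with less CG methylation in embryos that received sperm small RNAs from depressed males. They were chosen from the measured values, for 4 or more CG regions each with a lower mean in the depressed group, so those counts and levels are given as descriptions with no test. In the authors' deposited table the 5 genes, of 4040 gene names listed, hold 39 of 9707 distinct regions, from 53 of 18732 annotation entries. Of the 39 regions, 26 are CG, 2 CHG and 11 CHH (H being A, C or T). All 26 CG regions had the lower mean in the depressed group, which follows largely from the choice, and 98.5% of all listed CG regions had it too. The choice does not set the genes apart fully: Tspear and Zbtb16 also have 4 lower CG regions each.

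The values come from whole-genome bisulfite sequencing of 6 single embryos at embryonic day 4.5, taken about 108 h after microinjection as C57BL/6 zygotes. All 6 were cultured at 37 °C and 5% CO2. In this assay unmethylated cytosine is read as thymine and methylated cytosine as cytosine. The injected material was small RNA isolated from sperm at 2 ng/µl, from normal mice in the normal group (n = 3 embryos, replicates 1, 2 and 4) and from mice made depressed by stress in the depressed group (n = 3 embryos, replicates 1, 3 and 4). Embryos of either group were thus injected, none is an uninjected control, and each was lysed whole, so its blastocyst lineages are mixed. The table gives only the authors' mean of each group, so no level below has a spread between embryos or a known read depth, and whether any difference exceeds that spread was not tested.

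CG methylation is placed on cytosines followed by guanine and is copied at each cell division. In mammals most of it is erased after fertilisation, stands low in the blastocyst, and is laid down again around implantation, when introns and intergenic DNA regain high levels and CpG-rich promoters mostly stay free of it. CHG and CHH methylation is not copied in this way and is known mainly from neurons, oocytes and pluripotent cells.

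No listed region overlapped a RefSeq start-site window of Lingo1, Sash1, Slc9a9 or Thsd4, and the sequence just before 3 of these sites is shown to set out how different the promoters are. RefSeq start-site windows (GRCm38.p6, the mm10 build, 300 bases each) were matched for 4 of the 5 genes, all but Ank3, with 6 windows in all. The 250 bases before the start site are printed 5′ to 3′ on the gene's strand, with each CG dinucleotide in capitals. The first is Lingo1 (chr9:56796311-56796560, minus strand), the second Sash1 (chr10:8886071-8886320, minus strand) and the third Thsd4 (chr9:60511036-60511285, minus strand).
Lingo1: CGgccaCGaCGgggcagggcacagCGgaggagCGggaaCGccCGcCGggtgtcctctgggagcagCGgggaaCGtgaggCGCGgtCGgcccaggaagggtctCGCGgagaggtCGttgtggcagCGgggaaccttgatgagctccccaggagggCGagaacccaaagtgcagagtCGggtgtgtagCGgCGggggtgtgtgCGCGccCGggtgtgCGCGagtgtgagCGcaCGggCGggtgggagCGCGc
Sash1: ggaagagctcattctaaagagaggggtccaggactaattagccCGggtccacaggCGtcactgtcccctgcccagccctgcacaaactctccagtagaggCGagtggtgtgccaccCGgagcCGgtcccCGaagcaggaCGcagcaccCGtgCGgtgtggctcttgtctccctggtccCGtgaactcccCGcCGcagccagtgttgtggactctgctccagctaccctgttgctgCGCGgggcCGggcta
Thsd4: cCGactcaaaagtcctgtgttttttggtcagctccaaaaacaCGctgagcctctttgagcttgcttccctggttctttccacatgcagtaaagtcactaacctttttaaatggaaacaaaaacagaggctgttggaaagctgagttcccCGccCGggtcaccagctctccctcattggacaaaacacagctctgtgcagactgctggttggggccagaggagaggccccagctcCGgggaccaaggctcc

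Lingo1 has 31 CG dinucleotides in these 250 bases, a number reached by 5.19% of the 32851 RefSeq windows. Sash1 has 15, reached by 27.3% of them, and Thsd4 has 5, reached by 55.6%. The letters searched were CG, which reads the same on either strand, and the median over all windows was 6. A further Lingo1 start site (22 CG dinucleotides), a further Thsd4 site (1) and the Slc9a9 site (3) are not printed. The nearest lower CG region was 10.1 kb from a start site in Lingo1, 18.3 kb in Sash1, 22.5 kb in Slc9a9 and 61.9 kb in Thsd4. These distances hold for the 6 matched windows only. The printed Lingo1 site is at the 5′ end of the RefSeq span. The printed Sash1 site (8886070) and Thsd4 site (60511035) lie inside their spans, whose 5′ ends are at 8945608 and 60522113. They need not be the first promoter of the gene. The deposited annotation also lists a Sash1 region (8764103 to 8764169) at a further promoter inside the gene. The table lists only regions that differ, so it gives no methylation level at these start sites.

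Ank3 (ENSMUSG00000069601; chromosome 10, 69533486 to 70027436, 494 kb) encodes ankyrin-G, an adaptor with ankyrin repeats and a death domain that anchors sodium channels and cell adhesion proteins to the spectrin skeleton of the axon initial segment. It holds 17 of the 39 regions, namely 9 lower CG, 2 lower CHG, 1 lower CHH and 5 higher CHH regions. The CG regions stood at a median of 73.5% in the normal group (60.6 to 82.3%) and 6.57% in the depressed group (2.84 to 19.03%). They fall into 2 zones along the gene: 6 regions are spread over its body, and 3 lie close together near its high-coordinate end.

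In the body of Ank3, the CG regions were intronic apart from a region that touches an exon (69867339 to 69867460, 7 CpGs), which was at 60.6% in the normal and 3.81% in the depressed group. That exonic region had the lowest normal level of the 9. An intronic region over MTE2a, a long terminal repeat of the MaLR family, and the SINE B3A (69911296 to 69911641, 7 CpGs) was at 82.3% in the normal and 4.88% in the depressed group. Another over the MaLR repeat MTD (69718055 to 69718925) was nearly as high, at 82.04% against 9.50%, but rests on 4 CpGs in 871 bp. The third repeat among the Ank3 CG regions, an IMPB_01 satellite (69838039 to 69838766, 8 CpGs), had the lowest depressed level of the gene, 2.84%, against 69.8% in the normal group. Intronic regions without a listed repeat stood at 70.8% against 5.52% (69602609 to 69602732) and 76.8% against 6.57% (69788887 to 69789048), each with 4 CpGs.

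Near the high-coordinate end, 6 Ank3 regions of all 3 contexts lay within 12.04 kb (69987075 to 69999119), or 2.44% of the gene's span, and all 6 were lower in the depressed group. This stretch was singled out after its values were seen. A CHH region of 2209 bp (69987075 to 69989283; promoter, exon and intron entries) was at 31.7% in the normal and 1.85% in the depressed group over 82 cytosines. The CHG region inside it (69987196 to 69987294) was at 38.03% against 2.33%, and the next CHG region (69989605 to 69989704) at 75.4% against 5.33%. The CG regions that follow were at 68.8% against 10.4% (69990610 to 69990735; promoter, exon and intron), 75.7% against 19.03% (69993091 to 69993337; promoter, exon, intron and a CpG island shore) and 73.5% against 8.98% (69998963 to 69999119; intron). The lower CHG and CHH regions of Ank3 all lie in this stretch, on its low-coordinate side, and the 6 CG regions of the body had none beside them. The promoter entries are those of the deposited annotation and belong to start sites inside the gene.

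**Figure D1:**
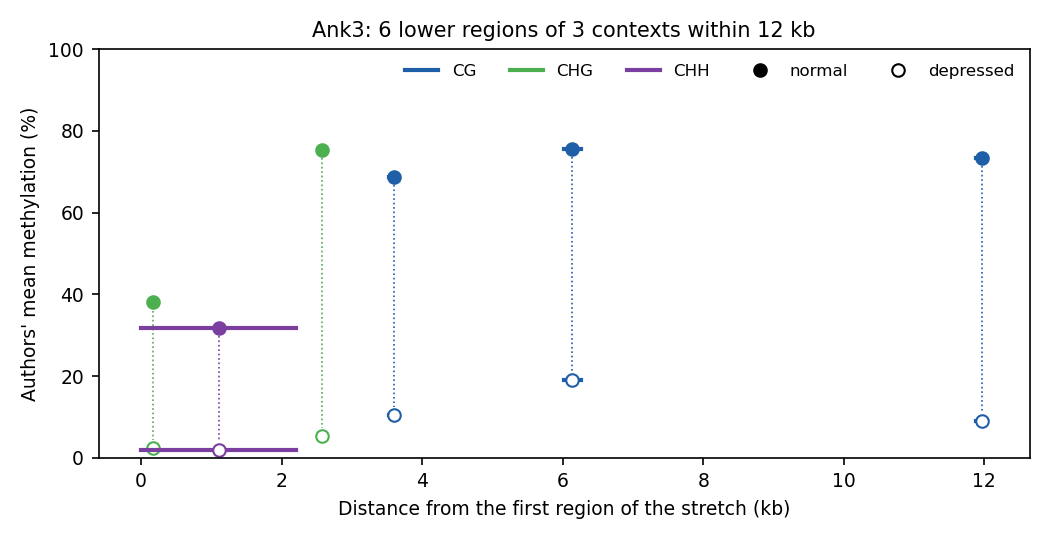
Authors' mean methylation (%) of the 6 Ank3 regions near the high-coordinate end against the distance from the first of them (kb), with filled circles for the normal group, open circles for the depressed group, colours for the cytosine context and bars for the length of each region. The normal means lie between 31.7 and 75.7% and the depressed means between 1.85 and 19.03%. All 6 were listed because their means differ, so a gap between the groups is built in. The CHH region contains the first CHG region.

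Lingo1 (ENSMUSG00000049556; chromosome 9, 56618460 to 56796310, 178 kb, the shortest of the 5) encodes a membrane protein with leucine-rich repeats and an immunoglobulin domain, which acts in the Nogo receptor complex and limits axon growth and myelination. Its 5 lower CG regions were all intronic, with a median of 72.8% in the normal (59.3 to 76.7%) and 3.59% in the depressed group (1.09 to 4.88%). Every depressed level was under 5%. Of these regions, 2 lay only 231 bp apart, at 59.3% against 3.81% (56746257 to 56746437, 8 CpGs) and 76.7% against 1.21% (56746668 to 56748253, 7 CpGs over MIRc, L1M5 and HAL1 repeats). No other pair of CG regions in these genes was under 1 kb apart. The region nearest the main start site (56786124 to 56786213, 5 CpGs) had 72.8% in the normal and 1.09% in the depressed group. The others were at 67.3% against 3.59% (56624325 to 56624423) and at 74.8% against 4.88% (56666478 to 56667958, 5 CpGs in 1481 bp with the retroviral repeat RLTR20C1_MM).

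Sash1 (ENSMUSG00000015305; chromosome 10, 8722217 to 8945608, 223 kb) encodes a scaffold with SAM and SH3 domains that takes part in Toll-like receptor signalling and is known as a candidate tumour suppressor. Its 4 lower CG regions had the highest median of the 5 genes in the depressed group, 9.002% (6.08 to 13.7%), and the lowest in the normal group, 69.9% (48.9 to 77.4%). The region with the most CpGs of all 26, with 21 over 2961 bp of exon and intron (8750541 to 8753501), was at 70.03% in the normal and 6.99% in the depressed group. Its statistic in the authors' deposited table, -143, was the strongest of the 26, and this statistic adds up along a region. A short region in a promoter and intron entry (8764103 to 8764169, 67 bp, 5 CpGs) was at 48.9% against 13.7%. This was the smallest difference of the 26, 35.2 percentage points, and the only one under 50. Intronic regions over the MaLR repeat MTE2b (8828000 to 8828192) and the SINE MIRc (8867676 to 8867745) were at 77.4% against 11.01% and 69.7% against 6.08%. Sash1 had no CHG or CHH region.

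Slc9a9 (ENSMUSG00000031129; chromosome 9, 94669557 to 95230453, 561 kb, the longest of the 5) encodes a sodium-proton exchanger of endosomes, which tunes their pH. It had the lowest depressed levels, with a median of 1.11% (0.586 to 2.34%), while its normal median, 74.9% (68.5 to 85.01%), was the highest. A region with MTD repeat entries (94805754 to 94805899, 5 CpGs) was at 85.01% in the normal and 2.34% in the depressed group, a difference of 82.7 points, the largest of the 26. The other intronic regions were at 78.03% against 0.910% (94692418 to 94692504), 71.7% against 1.31% (95159062 to 95159263) and 68.5% against 0.586% (95189435 to 95189617), each with 4 CpGs. All 4 depressed levels of Slc9a9 lay below every level of Ank3, Sash1 and Thsd4 and among the lowest of Lingo1. Each of these levels rests on 4 or 5 CpGs, so a difference between genes of a few points cannot be weighed without the read counts.

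Thsd4 (ENSMUSG00000032289; chromosome 9, 59966931 to 60522113, 555 kb) encodes a secreted protein with thrombospondin repeats, also called ADAMTSL6, that binds fibrillin microfibrils of the extracellular matrix. Its CG regions stood at a median of 74.3% in the normal (69.4 to 78.6%) and 5.36% in the depressed group (3.75 to 12.8%). An exonic region (60394376 to 60394535, 5 CpGs), listed also at the promoter of the unnamed gene ENSMUSG00000111065, was at 74.9% against 12.8%. Intronic regions were at 73.8% against 3.75% (60335227 to 60335350), 78.6% against 4.19% over the SINE B1F2 (60346310 to 60346568) and 69.4% against 6.53% over the SINE B4A (60079161 to 60079329). The exonic level in the depressed group was thus above the 3 intronic ones.

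**Figure D2:**
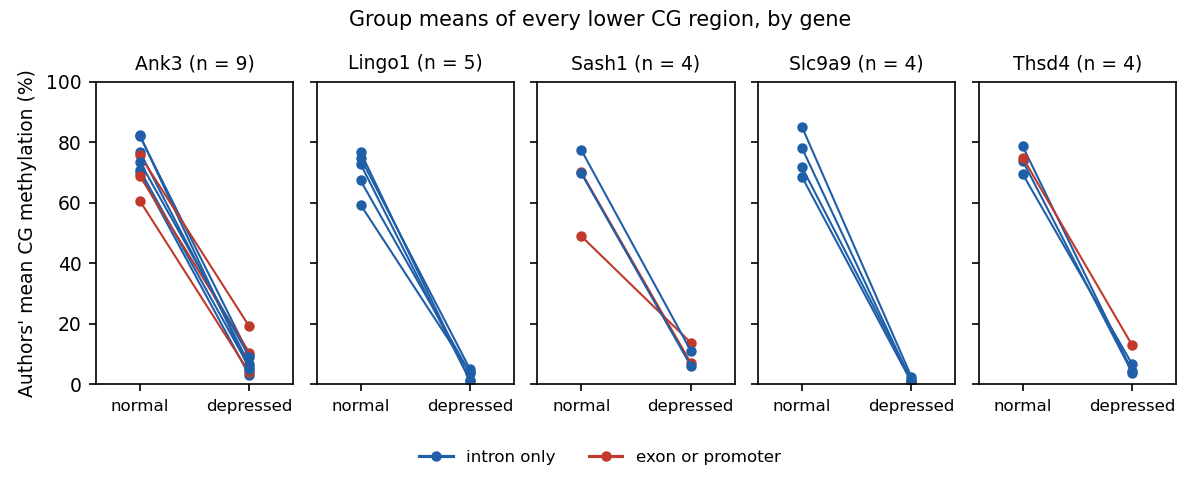
Authors' mean CG methylation (%) in the normal and the depressed group for each of the 26 lower CG regions, by gene, with a line joining the means of a region, blue for regions in introns only and red for those touching an exon or promoter. All normal means lie between 48.9 and 85.01% and all depressed means between 0.586 and 19.03%, and in Ank3 and Sash1 red and blue points overlap in the depressed group.

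Among the 26 CG regions, 20 lay in introns only and 6 touched an exon or promoter of the gene. In the depressed group the 6 had a median of 11.6% (3.81 to 19.03%) and the 20 a median of 4.0% (0.586 to 11.01%), while the normal medians were 69.4% and 73.6%. The exon or promoter regions came from Ank3 (3), Sash1 (2) and Thsd4 (1). Among the other lower CG regions on chromosomes 9 and 10, the depressed median was 5.40% for 186 regions in an exon, UTR or promoter (middle 50% of values 2.94 to 10.5%) and 4.88% for 215 in introns alone (2.28 to 8.77%). The intronic set includes the 9 regions of Lingo1 and Slc9a9, which have no exon or promoter region and stand at 0.586 to 4.88%. Within Ank3, Sash1 and Thsd4 the intronic median was 6.08% (2.84 to 11.01%, 11 regions), so the annotations overlap there, and no difference between them was tested.

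Their medians were 73.1% in the normal and 4.88% in the depressed group, beside 72.4% and 5.01% for the 481 other lower CG regions of chromosomes 9 and 10. Their median length was 166 bp, against 123 bp, and the median number of CpGs was 5 in either set. Of the 26, 17 had 4 or 5 CpGs, and the regions together hold 155 CpGs. Repeats were listed for 11 of 26 (42.3%), for 43.9% of the 481 others and for 32.6% of the 393 others that lie in genes. Exons were listed for 5 of the 26 (19.2%), for 31.4% of the 481 and for 38.4% of the 393. MaLR long terminal repeats, from an old family of retrovirus-like elements, were listed for 4 of those 11 regions, in Ank3 (2), Sash1 and Slc9a9, and for 35 of 211 (16.6%) of the others with a repeat. SINEs were the most common, listed for 6 of the 11 and for 46.9% of the 211. ERVK retroviral repeats were listed for 1 of the 11 and 18.96% of the 211, LINE repeats for 1 and 27.01%, and satellites for 1 and 2.37%. No difference in repeat class was tested. None of the 26 overlapped a CHG or CHH region, beside 20 of the 481 others (4.16%).

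All 5 genes are long, so their counts are given beside those of other long genes. Of 21900 protein-coding genes in RefSeq, 2.54% had a lower CG region, and 0.0320% had 4 or more, a set of 7 genes that contains the 5 and, as stated, Tspear and Zbtb16. All 7 lie on chromosomes 9 and 10, where the lower CG regions of the whole list concentrate (268 and 239 of 867). Among the 119 protein-coding genes on these chromosomes that are at least as long as Lingo1, 46.2% had a lower CG region and 5.88% had 4 or more. Per 100 kb of gene, Lingo1 had 2.81 lower CG regions, Ank3 1.82, Sash1 1.79, Thsd4 0.720 and Slc9a9 0.713. These set Lingo1 at rank 1 of the 119, before Zbtb16 (2.17) and Tspear (1.99), Ank3 at rank 4, Sash1 at 5, Thsd4 at 12 and Slc9a9 at 14. Taken over the span from the first to the last listed region, the density was 3.41 in Sash1, 3.001 in Lingo1 and 2.13 in Ank3. It was 1.27 in Thsd4 and 0.771 in Slc9a9. Sash1 thus stood above Lingo1 by this measure, so the order of the genes depends on the measure. Over the whole of each chromosome the density was 0.215 per 100 kb on chromosome 9 and 0.183 on chromosome 10. The 3 members on chromosome 9 hold 4.85% of its lower CG regions on 1.04% of its annotated span, and the 2 on chromosome 10 hold 5.44% on 0.550%. The 16 genes of these chromosomes longer than Slc9a9 had at most 2 lower CG regions each, and 10 of them had 0. Since the 5 genes were chosen for their counts, these densities and ranks are descriptions, and a part of gene length in them was not tested.

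**Figure D3:**
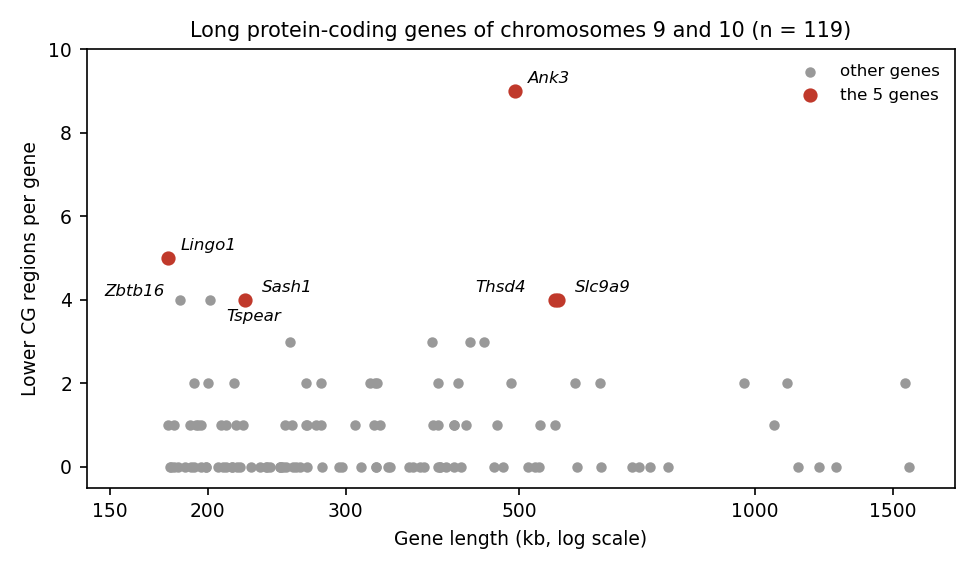
Number of lower CG regions per gene against gene length (kb, log scale) for the 119 protein-coding genes of chromosomes 9 and 10 at least as long as Lingo1, with the 5 genes in red and the names of all genes with 4 or more regions. Ank3 stands at 9 regions, Lingo1 at 5 and the other named genes at 4, while the 16 genes longer than Slc9a9 have at most 2.

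The regions were also spaced widely inside each gene. Of the 26, 21 lay over 10 kb from the next CG region of the same gene. From the first to the last CG region it was 397 kb in Ank3, 162 kb in Lingo1, 117 kb in Sash1, 497 kb in Slc9a9 and 315 kb in Thsd4. Together the CG regions cover 1.93% of the span of Lingo1, 1.47% of Sash1, 0.584% of Ank3, 0.128% of Thsd4 and 0.110% of Slc9a9. The listed difference thus concerns short, scattered stretches, and the methylation of the DNA between them was not analysed here.

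**Figure D4:**
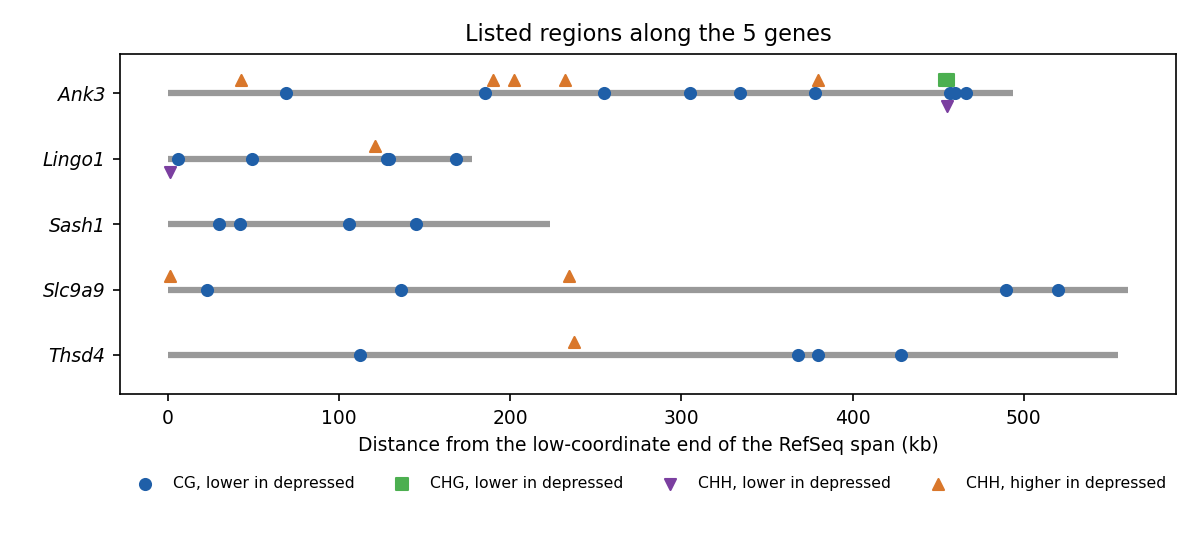
Position of all 39 listed regions along the 5 genes, as the distance in kb from the low-coordinate end of the RefSeq span (for Lingo1, Sash1 and Thsd4, on the minus strand, this is the 3′ end), with grey bars for the genes and symbols for context and direction. Lower CG regions are scattered along every gene, higher CHH regions lie among them in Ank3, Lingo1, Slc9a9 and Thsd4, and the lower CHG and CHH regions lie near 1 end of Ank3 and of Lingo1.

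CHH methylation went the other way in the bodies of 4 of the genes. Ank3 had 5 higher CHH regions, Slc9a9 2, Lingo1 1 and Thsd4 1. Their levels were low, between 2.42 and 11.4% in the depressed and between 0.332 and 2.39% in the normal group, with medians of 4.52% and 1.12%. All 9 were intronic, and an Ank3 region (69913027 to 69913213, 0.337% in the normal and 2.42% in the depressed group) was also listed at a promoter. The highest depressed level was in Slc9a9, 0.973 kb from its start site, where an IMPB_01 satellite region (94670865 to 94670985, 66 cytosines) stood at 2.35% in the normal and 11.4% in the depressed group. Ank3 followed with 2.39% against 8.07% (69735141 to 69735368, 89 cytosines). The Lingo1 region was at 1.12% against 6.06% (56739138 to 56739293) and the Thsd4 region, over the retroviral repeat RMER17D, at 0.332% against 3.52% (60204170 to 60204324). A further Slc9a9 region of 138 cytosines was at 1.30% against 4.58%, and the other Ank3 regions were at 1.67% against 4.52%, 0.718% against 4.05% and, over the repeat RMER17C2, 0.696% against 2.86%.

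Higher CHH regions are common in this list: 79.6% of all CHH regions were higher in the depressed group, with medians of 4.76% and 0.769%. A higher CHH region was listed for 9.11% of protein-coding genes, and for 58.8% of the 119 long genes of chromosomes 9 and 10, beside 4 of the 5 genes here. In Ank3, a lower CG region and a higher CHH region lay 1386 bp apart (the MTE2a region at 69911296 and the CHH region at 69913027), and another such pair lay 4270 bp apart (69718055 and 69723195). These pairs were singled out after their values were seen, and the table does not say which intron a region lies in.

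**Figure D5:**
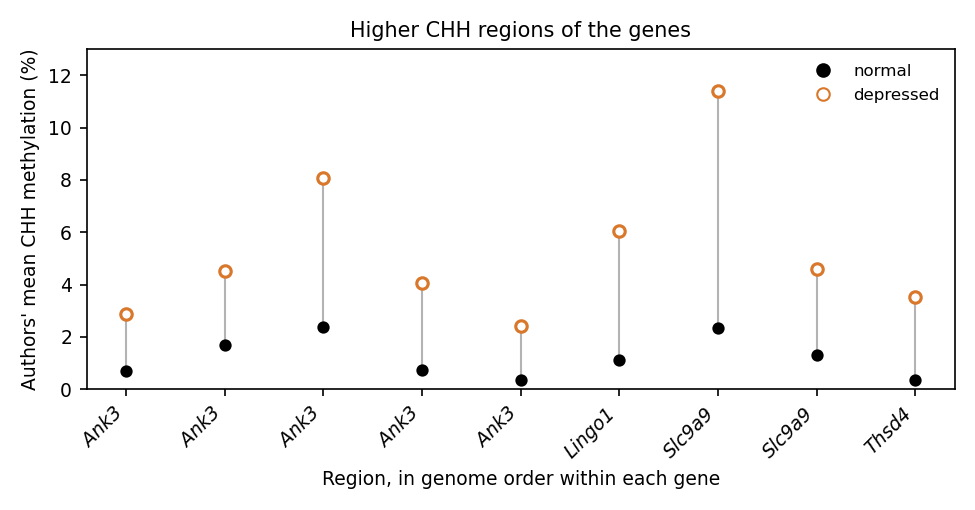
Authors' mean CHH methylation (%) of the 9 higher CHH regions of Ank3, Lingo1, Slc9a9 and Thsd4, with filled circles for the normal and open circles for the depressed group. The regions shown are those listed as higher, so every depressed mean (2.42 to 11.4%) lies above its normal mean (0.332 to 2.39%) by choice. The Slc9a9 region near the start site has the highest depressed mean.

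Lower CHG and CHH regions numbered 4 in these genes, of which 2 CHG and 1 CHH lay in the Ank3 stretch, and all touched an exon. How many of all listed lower CHG and CHH regions touch an exon was not counted here. Besides the Ank3 stretch, an exon of Lingo1 with CpG island and island shore entries held a lower CHH region (56619581 to 56619716, 33 cytosines), at 25.8% in the normal and 5.49% in the depressed group. It lies 4609 bp from the nearest lower CG region, toward the 3′ end of the gene. A lower CHG region was listed for 6.40% of protein-coding genes and 18.5% of the 119 long genes, beside 1 of the 5 genes here. For lower CHH regions these shares were 5.37% and 25.2%, beside 2 of the 5. None of the 5 had a higher CG region (0.0411% of protein-coding genes) or a higher CHG region (0.758%).

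Just outside the choice stand 14 genes with exactly 3 lower CG regions, all on chromosomes 9 and 10. Among those with the largest summed statistic are Med16, a Mediator subunit (median 66.3% in the normal and 3.95% in the depressed group, with 2 of its 3 regions inside the RefSeq span), the laminin gene Lamb2 (66.0% against 10.6%), the presynaptic scaffold gene Bsn (62.3% against 5.99%) and the semaphorin receptor gene Plxnc1 (77.9% against 6.65%). Just inside it, Thsd4 had 4 regions with 74.3% against 5.36%. Tspear (78.3% against 1.26%) and Zbtb16, a zinc finger repressor gene also called PLZF (73.6% against 2.67%), had 4 as well. Several medians of the genes outside the 5, such as those of Lamb2, lie beyond the medians of the 5. Their levels in single regions overlap those of the 5 genes in either group. By the numbers of lower and higher regions in the 3 contexts, over 3933 other genes with a listed region, Tspear and Zbtb16 were also the most like Sash1 (summed difference 0), Thsd4 (1) and Lingo1 (3). Osbpl10 (3 lower CG and 2 higher CHH regions) was the most like Slc9a9, with a difference of 1, and Anks1b (2 lower CG, 2 lower CHG, 1 lower CHH and 4 higher CHH regions) the most like Ank3, with a difference of 8.

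Lower CG regions were rare among relatives and partners of the 5 genes, as among all genes. Such regions concentrate on chromosomes 9 and 10, while every listed region of these relatives and partners lies on another chromosome. Of 92 such genes in 5 lists, 1 had a lower CG region and 0 a higher one, beside the 2.54% of all protein-coding genes with a lower one. It was Slc9a8, named after its values were seen, an exchanger of the Golgi (chromosome 2, 67.8% in the normal and 3.09% in the depressed group, exon and intron). In the other contexts, 6 of 22 ankyrins and axon initial segment partners had a lower CHG region, 5 a lower CHH region and 2 a higher CHH region, beside 6.40, 5.37 and 9.11% of all protein-coding genes. Gene length was not matched in these shares. Among spectrins, Sptbn1 had an exonic CHH region at 32.1% in the normal and 0.378% in the depressed group, and Sptan1 an intronic one at 22.3% against 0.794%. Ank1, the ankyrin gene of red blood cells, had an intronic CHH region at 0.478% in the normal and 5.61% in the depressed group, and a promoter CHH region with high means in either, 95.8% against 84.4%.

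Of 19 genes of the LINGO family and the Nogo receptor complex, 4 had a lower CHG region, 1 a higher CHG region, 2 a lower CHH region and 4 a higher CHH region. Over all protein-coding genes these shares were 6.40, 0.758, 5.37 and 9.11%, in the same order. Rtn4rl2, a Nogo receptor homologue, stood at 77.2% in the normal and 0.191% in the depressed group for CHH and 71.98% against 1.53% for CHG in an exon. The kinase gene Wnk1 had a CHH region at 33.9% against 0.910%. In the opposite direction, Rtn4rl1, another Nogo receptor homologue, had an intronic CHH region at 0.892% in the normal and 6.51% in the depressed group. The regions of Lingo2, a paralogue of Lingo1, were higher CHH regions in introns, the strongest at 1.89% against 6.16%. Mag, the myelin-associated glycoprotein gene, named after its values were seen, held the higher CHG region, at 0.638% against 29.1%. Of 13 SASH1 relatives and signalling partners, 1 had a lower CHG region (6.40% of all protein-coding genes; Crkl, 47.8% in the normal and 1.07% in the depressed group) and 1 a higher CHH region (9.11%; the Toll-like receptor gene Tlr4, 1.83% against 5.94%). Of 16 exchangers and their regulators, 2 had a lower CHG (6.40% of all protein-coding genes), 1 a lower CHH (5.37%) and 4 a higher CHH region (9.11%), such as Slc9a2 (1.01% in the normal and 4.70% in the depressed group). Of 22 THSD, ADAMTS-like and microfibril genes, 9 had a higher CHH region (9.11% of all protein-coding genes) and 0 a region of another kind. Examples are that of Adamtsl1 (2.68% in the normal and 9.64% in the depressed group) and that at the promoter of the elastin gene Eln (1.13% against 8.06%). No list was matched for gene length to all protein-coding genes. Among the 119 long genes of chromosomes 9 and 10, 18.5% had a lower CHG, 25.2% a lower CHH and 58.8% a higher CHH region. A part of gene length in the counts of the lists was not tested.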

How the data were processed

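Whole-genome bisulfite libraries of 6 single embryos were grouped by their labels, 3 normal and 3 depressed. Trim Galore 0.3.3, Bismark and SAMtools with build mm10 are named in the submitters' processing notes. Neither the caller of regions, its cutoffs, a coverage filter nor the pooling of embryos is given in the sources used here. Per the file headers, the deposited table gives each group's mean methylation as a fraction, converted here to percent, and a region statistic (a score). The deposited region length and number of cytosines were used as given.

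Entries were collapsed to distinct regions by position and context and counted per gene name with pandas 2.3.3. Gene names were matched to RefSeq (GRCm38.p6) by symbol or unique synonym, 3940 of 4040. The counting was tested on simulated data. No test was run, since the table holds no values per embryo and the genes were chosen from these means. The genes and gene lists were chosen with earlier results of these data known. The text names the 5 genes, those with 3 or 4 lower CG regions (up to 5 of the former, by summed statistic), the nearest by region counts, and up to 4 per related list. A few genes the rule picks are not reported here.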

Additional observations from a re-analysis of the deposited data

How the results depend on the processing

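With regions inside the RefSeq span, a difference of at least 50 percentage points, or regions under 1 kb apart merged, the number of lower CG regions stayed within 1.5 times of that listed in each of the 5 genes. It was 3 in Sash1 at the 50-point setting, under the 4 needed for the choice. With at least 6 cytosines it was 5 in Ank3, 2 in Lingo1, 2 in Sash1, 0 in Slc9a9 and 0 in Thsd4, so only Ank3 kept 4 or more. With a statistic at or above the median of all CG regions (29.5 in size) it was 5, 3, 2, 1 and 1 in the same order. With repeat regions left out it was 6 in Ank3, 3 in Lingo1, 1 in Sash1, 3 in Slc9a9 and 2 in Thsd4, so again only Ank3 kept 4 or more. From the first to the last listed region, the density was 3.41 per 100 kb in Sash1 and 1.27 in Thsd4. In Ank3, Lingo1 and Slc9a9 it stayed within 1.5 times of that over the RefSeq span. The higher CHH regions of Ank3, Lingo1, Slc9a9 and Thsd4 numbered 0 each at a difference of 20 points. That outcome was fixed by their levels, since none was over 11.4% in the depressed group. Median levels moved by less than 1 SD over a gene's regions when weighted by cytosines or without the strongest region. No paired analysis was possible because the table holds no values per embryo, and no embryo could be left out for the same reason. Read depth is unknown, and 17 of the 26 levels rest on 4 or 5 CpGs.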

Other observations

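Several of the longest genes of chromosomes 9 and 10 had higher CHH regions and no lower CG region. Ctnna3, a catenin gene and the longest at 1574 kb, had 4 higher CHH regions and 0 lower CG regions, and Syt1, the calcium sensor gene of synaptic vesicles, had 5 and 0. Of the 16 genes there longer than Slc9a9, 14 had a higher CHH region and 6 a lower CG region. Ctnna3 and Syt1 were named after their values were seen.

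Tspear, which encodes a secreted protein with EAR repeats and had 4 lower CG regions like Sash1, Slc9a9 and Thsd4, ranged from 73.1 to 90.96% in the normal and from 1.01 to 8.40% in the depressed group. Zbtb16 ranged from 65.4 to 75.9% and from 1.17 to 9.87%. Neither had a CHG or CHH region.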
